A study of Rattus norvegicus with 4 samples.

Results

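The genes described here are 10 rat genes chosen by name: the metallothioneins Mt1, Mt2A and Mt3, their regulator Mtf1, the exporters Slc30a1, Slc30a4 and Slc30a5, and the importers Slc39a1, Slc39a10 and Slc39a14. Non-control probes were assigned to them through the accession of each probe. This gave 11 probes for 9 of the 10 genes, out of 16581 genes with a named probe in all, and no named probe for Slc39a10. The RNA came from NR8383, a rat alveolar macrophage line of adherent and floating cells, used after 20 passages. Every culture had received NM403, which is a carbon nanotube with several walls, at a dose of 0.8 cm2/cm2 and was kept with it for 4 h. The 4 arrays analysed here make up that 1 group and are given as 4 biological replicates, with nothing further on how the cultures were kept apart. The unexposed cultures named in the design were not analysed here, so no value below is a response to NM403 and no test between groups was made.

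Metallothioneins are small cysteine-rich proteins that bind zinc and other metal ions in the cytosol and so hold free zinc low. The zinc-sensing transcription factor encoded by Mtf1 binds metal response elements in front of metallothionein and zinc exporter genes and raises their transcription when zinc is high. Transporters of the SLC30 (ZnT) family carry zinc out of the cytosol, to the outside or into organelles, and those of the SLC39 (ZIP) family carry it in. Macrophages use both routes to withhold zinc from, or load it onto, what they take up.

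The 4 arrays lay on 1 slide. Replicates 1 and 3 resembled each other, with a Pearson correlation of 0.996 across the 7937 genes whose brightest probe was detected on all arrays, and so did replicates 2 and 4, at 0.992. The other 4 pairs lay between 0.967 and 0.970. The points are genes read on shared arrays, which do not count as replicates, and no p-value is given. No pair of arrays shared a spot of equal value. The scanner software found 2 of its 11 quality measures out of range on replicate 4 and 0 on the others. All 10 macrophage markers were detected on all 4 arrays, against 1 of 8 epithelial, 1 of 6 fibroblast, 1 of 5 neutrophil and 1 of 6 neuron and glia markers (Foxj1, Dcn, Camp and Mbp). A further 2 epithelial markers (Ager on 2 arrays, Sftpc on 1), the fibroblast marker Col1a2 (2 arrays), the neutrophil marker S100a8 (1 array) and the neural markers Gfap and Syt1 (2 arrays each) were detected on some arrays, and the rest, Epcam, Cdh1, Col1a1 and Elane among them, on none. A level measured on a whole culture cannot tell fewer cells that carry a transcript from less of it per cell.

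Because Mtf1 acts through short DNA elements, the start windows of these genes (250 bases before to 50 after the annotated start, RefSeq, build GRCr8) were searched on both strands for the core of the metal response element, spelled TGCACNC or TGCGCNC. A window was given for 9 of the 10 genes, all but Slc39a14. The core was found in 8 of these 9 windows, against 24.2% of all 33469 windows of that length, in which a gene with several starts counts once per start. Mt1 held 6 matches, a number reached by 13 windows (0.0388%). Mt2A held 4, Mt3 and Slc30a4 held 3 each, Mtf1, Slc30a1 and Slc30a5 held 2 each, Slc39a1 held 1 and Slc39a10 held 0. The 2 matches of Slc30a5 overlap and are the same place read on both strands, starting at -150 and -149. The genes were chosen as zinc genes, so a high share is a description of that choice, and a match is a run of letters and not a shown binding site.

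The 250 bases in front of 4 starts are given because they show how the matches are arranged: Mt1 and Mt2A as the metallothioneins with signal on these arrays, Mt3 as one without, and Slc30a1 as the exporter best known as an Mtf1 target. Capitals mark the metal response core, which reads as GNGTGCA or GNGCGCA where it lies on the opposite strand. The stretches lie at chr19:10832976-10833225 for Mt1, chr19:10838709-10838958 for Mt2A and chr19:10856081-10856330 for Mt3, all on the minus strand, and at chr13:106021769-106022018 on the plus strand for Slc30a1.
Mt1: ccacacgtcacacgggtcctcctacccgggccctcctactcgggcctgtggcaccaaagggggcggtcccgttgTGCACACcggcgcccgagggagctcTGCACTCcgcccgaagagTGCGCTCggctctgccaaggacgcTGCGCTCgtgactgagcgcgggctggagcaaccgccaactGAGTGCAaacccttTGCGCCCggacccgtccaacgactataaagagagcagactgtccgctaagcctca
Mt2A: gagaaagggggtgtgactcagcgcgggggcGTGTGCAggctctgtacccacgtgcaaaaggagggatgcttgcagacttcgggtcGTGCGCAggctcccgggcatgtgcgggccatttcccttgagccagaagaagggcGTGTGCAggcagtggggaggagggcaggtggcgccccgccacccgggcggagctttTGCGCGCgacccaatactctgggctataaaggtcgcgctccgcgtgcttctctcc
Mt3: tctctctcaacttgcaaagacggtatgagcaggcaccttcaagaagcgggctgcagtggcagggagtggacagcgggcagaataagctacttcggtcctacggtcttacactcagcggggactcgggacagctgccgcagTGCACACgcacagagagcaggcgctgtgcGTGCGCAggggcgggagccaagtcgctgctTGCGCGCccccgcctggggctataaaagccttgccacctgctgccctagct
Slc30a1: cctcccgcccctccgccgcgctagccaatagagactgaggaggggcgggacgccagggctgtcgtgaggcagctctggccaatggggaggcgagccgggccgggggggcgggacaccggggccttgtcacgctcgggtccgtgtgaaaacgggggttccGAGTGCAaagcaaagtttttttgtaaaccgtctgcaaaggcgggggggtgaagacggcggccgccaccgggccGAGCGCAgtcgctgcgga

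The 6 matches of Mt1 ran from position -176 to -49 relative to the start, 5 of them on the gene's own strand. In Mt2A, 3 of the 4 lay on the opposite strand. All 3 metallothionein windows also held TATAAA close to the start, beginning at -32 in Mt1 and at -31 in Mt2A and Mt3, a run of letters found on either strand in 14.2% of all windows. The other 6 windows held none. The antioxidant response core TGACNNNGC, through which NRF2 is known to act, occurred in 6 of the 9 windows, against 12.1% of all windows. Mt1 had it at -101 and Mt2A at -237, and Mt3 did not have it.

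**Figure D1:**
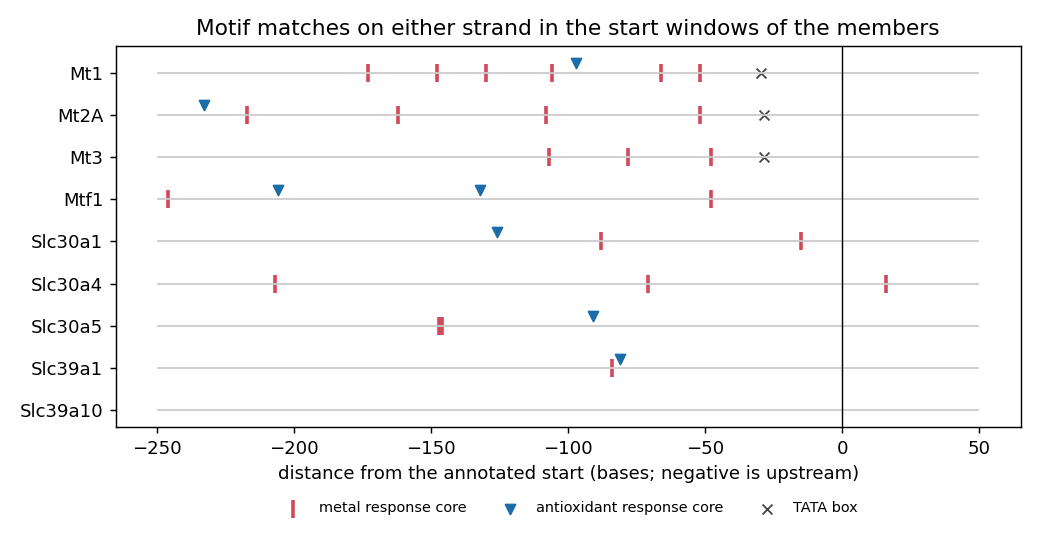
Positions of motif matches in the start windows of the 9 genes with a window; the x axis is the distance in bases from the annotated start. Red bars are metal response cores, blue triangles antioxidant response cores and crosses TATA boxes, on either strand. Mt1 carries 6 red bars, Slc39a10 carries 0, and the crosses appear in the 3 metallothionein rows.

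Signal well above background on all 4 arrays was found for 7 of the 9 genes that had a named probe, and on no array for the other 2, where over all genes with a named probe the shares were 47.9% and 40.4%. A gene counts as detected on an array where the scanner software called at least 1 of its probes well above background. Between 7 and 11 of the 308 negative control spots per array got the same call, from 2.27% (95% exact interval 0.919 to 4.63) on replicate 1 to 3.57% (1.80 to 6.30) on replicate 3. The detected genes were Mt1, Mt2A, Mtf1, Slc30a1, Slc30a5, Slc39a1 and Slc39a14. Mt3 and Slc30a4 were detected on no array. Levels below are log2 processed signals minus the 75th percentile, on the same array, of the probes detected on all arrays, with the mean ± SD over the 4 cultures. They follow 1 probe across arrays and do not rank one gene against another, because probes bind with different strength.

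**Figure D2:**
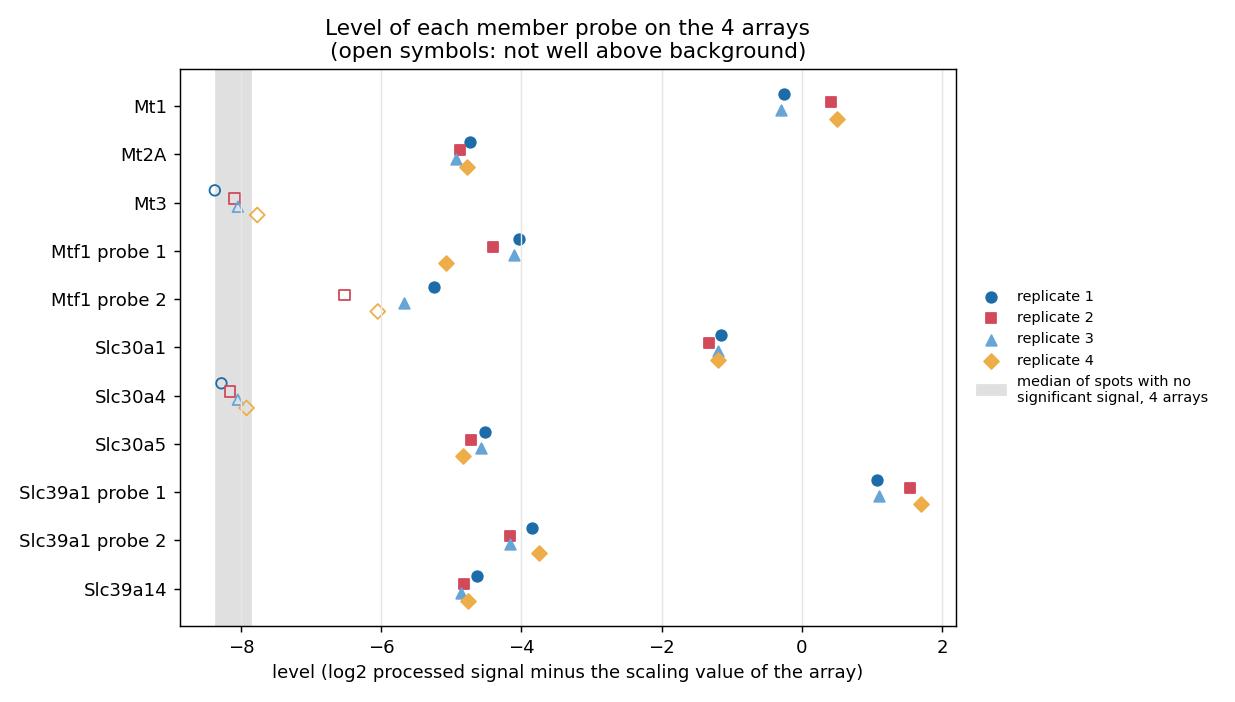
Level of each of the 11 probes on the 4 arrays; the x axis is the log2 processed signal scaled per array, symbols are replicates, and open symbols mark levels not well above background. The grey band spans the 4 arrays' medians of spots without significant signal, from -8.35 to -7.86, and the symbols of Mt3 and Slc30a4 lie in it or beside it.

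Mt1, the metallothionein of most tissues, was measured by a probe printed 10 times on each array. Its processed intensity was 2277, 3344, 1841 and 3931 on replicates 1 to 4. The scaled levels were -0.25, 0.41, -0.29 and 0.50 in that order, or 0.09 ± 0.42 (SD, n = 4), a 1.74-fold range. Replicates 2 and 4 read high and replicates 1 and 3 low. The spots on 1 array were close together, with SDs from 0.0483 on replicate 4 to 0.107 on replicate 1. The brightest spot on replicates 1 and 3 read -0.09, and the dimmest used spot on replicates 2 and 4 read 0.32, so the spots of these arrays did not overlap. Of the 10 spots on replicate 4, 2 were left out as outliers, at 0.25 and 0.30, and 1 of the spots on replicate 2 had 6 of 24 neighbouring spots at 4 or more times their median on the other 3 arrays, though it was not so itself. Spots of 1 array share 1 RNA, so they measure the noise of the array and not of the cultures. The rat genome carries Mt1 pseudogenes, and how far their transcripts add to this probe was not tested.

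Mt2A, the other widely expressed metallothionein, was measured by 1 spot per array with intensities of 102, 85.4, 73.5 and 101 on replicates 1 to 4. Its levels were -4.73, -4.88, -4.94 and -4.78, or -4.83 ± 0.10 (SD, n = 4), a 1.16-fold range. The 4 arrays were close, with replicate 1 highest and replicate 3 lowest. The software's own error for these spots was 12.7% to 15.2% of the signal. Mt2A and Mt1, which lie close together on 1 chromosome, had unlike patterns over these arrays: the order from low to high was replicates 3, 2, 4, 1 for Mt2A and 3, 1, 2, 4 for Mt1. That contrast depends on the scaling. With the percentile taken over all non-control probes, with the median of the detected probes or with quantile normalization, Mt2A had the order of Mt1, with ranges of 1.46-fold, 1.28-fold and 1.57-fold.

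Mt3, the metallothionein first described in brain, read -8.37, -8.09, -8.05 and -7.77 on replicates 1 to 4. Its probe was printed 10 times per array, with 1 spot left out on replicate 4, and no spot was well above background. The software called the signal of 1, 3, 1 and 2 of the spots significant. Over all probes, spots without significant signal carry a value close to the software's own error estimate, with a median level of -8.35, -8.21, -8.07 and -7.86 on the 4 arrays. The values of Mt3 lay near these medians and have no order. Of the 6 neuron and glia markers, the astrocyte gene Gfap and the synaptic gene Syt1 were detected on 2 arrays each and the myelin gene Mbp on 4. Mt4, the metallothionein of stratified epithelium, was likewise not detected on any array.

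**Figure D3:**
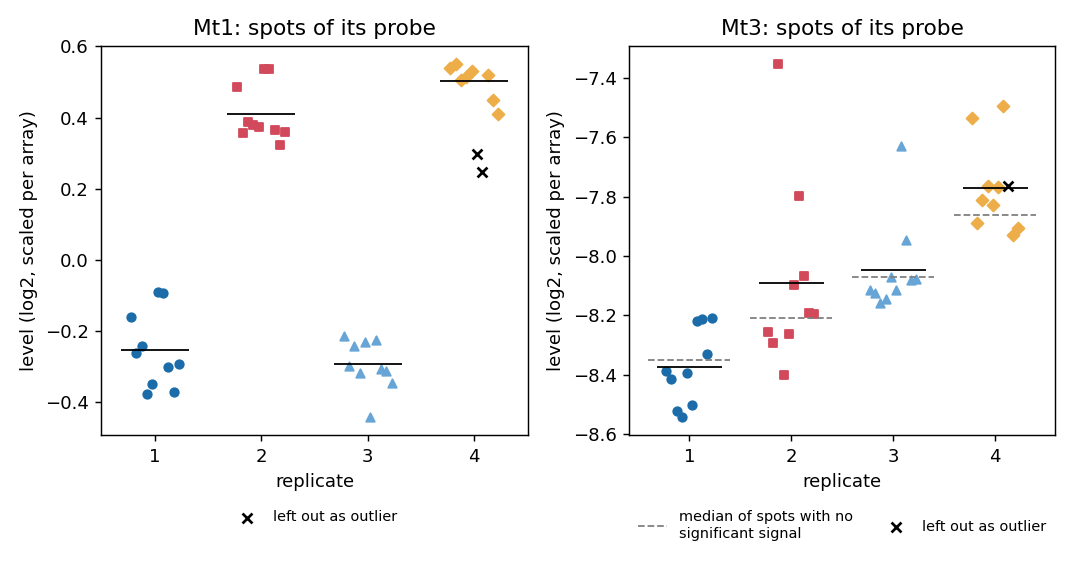
Each printed spot of the Mt1 probe (left) and the Mt3 probe (right) by replicate; the y axis is the log2 level scaled per array, black lines are the means of the used spots, and crosses are spots left out as outliers. Dashed lines are the array's median of spots without significant signal. Mt1 spots of replicates 2 and 4 lie above those of replicates 1 and 3, and the Mt3 spots follow the dashed lines.

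Mtf1, the zinc sensor, had 2 probes. The brighter one read -4.03, -4.41, -4.11 and -5.08 on replicates 1 to 4, or -4.41 ± 0.48 (SD, n = 4). Its range was 2.06-fold, and it was the 1 of the 7 detected members with a range over 2-fold, against 13.6% of all genes detected on all arrays. The range of Mtf1 was 1.62-fold when the percentile was taken over all non-control probes, where Mt1 at 2.26-fold was instead the 1 member past 2-fold. It was 1.78-fold with the median of detected probes, 1.64-fold with quantile normalization and 1.71-fold with normexp. Replicate 4 set this spread: without it the SD was 0.191 and the range 1.29-fold. Replicate 4 is also the array with the quality measures out of range, and whether the reading is tied to them was not tested. The dimmer probe read -5.25, -6.52, -5.68 and -6.05 and was well above background on replicates 1 and 3 only. Both probes were highest on replicate 1 and next on replicate 3, but the lowest array was replicate 4 for the brighter probe and replicate 2 for the dimmer one.

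Slc30a1 encodes the exporter of the plasma membrane, ZnT1. Its levels were -1.15, -1.33, -1.19 and -1.20 on replicates 1 to 4, or -1.22 ± 0.08 (SD, n = 4). The range was 1.13-fold, the narrowest of the detected members, and replicate 2 was the lowest array. Without replicate 2 the SD was 0.0224. Slc30a5 encodes ZnT5, which works with ZnT6 to load zinc into the secretory pathway. It read -4.52, -4.71, -4.58 and -4.83, or -4.66 ± 0.14 (SD, n = 4), with replicate 4 lowest and an SD of 0.0907 without it. Slc30a4, which encodes the vesicle exporter ZnT4, read -8.28, -8.16, -8.05 and -7.92. All 4 of its spots lacked significant signal, so these values stand close to the error estimates of the software and have no order.

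Slc39a1, the gene of the plasma membrane importer ZIP1, had 2 probes that were both detected on all arrays. The brighter had intensities of 5718, 7312, 4811 and 9000 and levels of 1.07, 1.54, 1.09 and 1.70 on replicates 1 to 4, or 1.35 ± 0.32 (SD, n = 4). Replicates 2 and 4 were high and replicates 1 and 3 low, as for Mt1, with a 1.54-fold range. The dimmer probe read -3.85, -4.17, -4.17 and -3.75, or -3.98 ± 0.22, and had replicates 1 and 4 high instead. Of the 24 spots around its spot on replicate 4, 2 were at 4 or more times their median on the other arrays. The 2 probes thus shared the highest array and not the order of the others. Slc39a14 encodes ZIP14, an importer of zinc, manganese and iron that rises in liver during inflammation. Its levels were -4.64, -4.83, -4.86 and -4.76, or -4.77 ± 0.10 (SD, n = 4), a 1.16-fold range, and the SD was 0.0511 without replicate 1.

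The spread between arrays was set against the noise of printed spots. That noise was taken from probes printed at least 3 times per array whose level lay within 0.5 of the member. The SD over arrays was 7.85 times the median within-array SD of such spots for Mt1, 6.49 times for Slc39a1 and 3.17 times for Mtf1. It was 1.20 times for Slc30a1, 0.84 times for Slc30a5, 0.58 times for Slc39a14 and 0.56 times for Mt2A. The level of Mt1 is a mean over 8 to 10 spots per array, where each other detected member has 1 spot per probe. The ratio of Mt1 is thus not the same measure as the other ratios. Spot noise holds no variation of labelling or hybridisation, so these ratios are a description. They also move with the setting. Over 7 other settings the SD ran from 0.0122 to 0.303 for Mt2A and from 0.0401 to 0.279 for Slc39a14. Each had its highest value under quantile normalization, above its spot noise. The lowest values of both came under normexp, where an offset of 50 is added to the signals. For Slc30a1 the SD ran from 0.0616 to 0.172. For Mt1 it ran from 0.392 to 0.636, and for Slc39a1 from 0.215, with the mean over probes, to 0.525. The median SD of the 7 detected members was 0.137, beside 0.234 over all 7937 genes, and with quantile normalization the order turned, at 0.279 and 0.250.

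**Figure D4:**
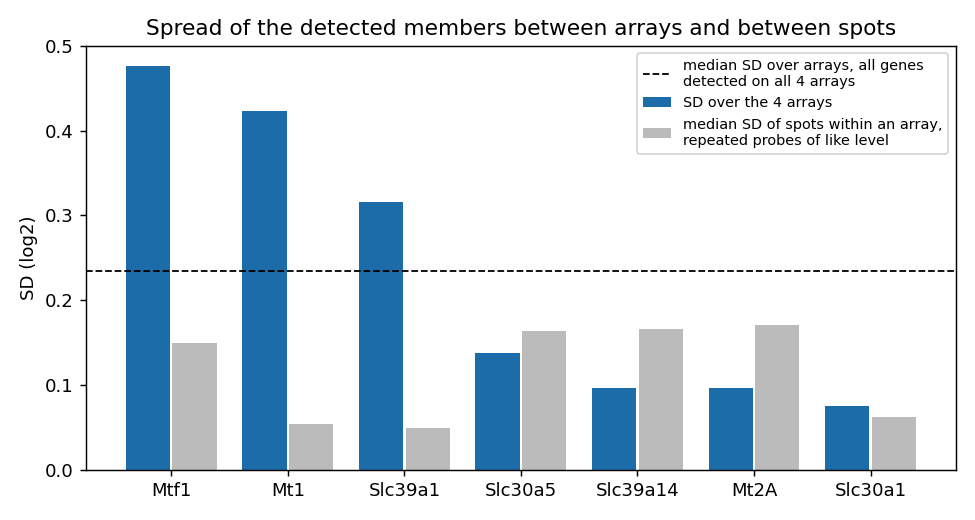
SD over the 4 arrays (blue) of the 7 detected members and the median SD of spots within an array for repeated probes of like level (grey), in log2 units. The dashed line is the median SD over arrays of all 7937 genes, 0.234. Blue stands above the dashed line for Mtf1, Mt1 and Slc39a1 alone, and below grey for Slc30a5, Slc39a14 and Mt2A.

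The likeness of replicates 1 and 3, and of 2 and 4, ran through these genes in both directions. These are not groups of the study. Replicates 2 and 4 both read above replicates 1 and 3 for Mt1 and Slc39a1, 2 of 7 detected members, where 47.2% of all genes did. They both read below for Mtf1, Slc30a1 and Slc30a5, 3 of 7, where 34.5% of all genes did, and these 3 depend on the setting. For Slc30a1 replicates 4 and 3 read -1.195 and -1.192, closer than the spot noise of 0.0627 near its level. Slc30a1 turned to above when the percentile was taken over all non-control probes and with the median of detected probes, and Slc30a5 with that percentile and with quantile normalization. Mtf1 overlapped in those last 2 settings. Slc30a1 overlapped with quantile normalization and with normexp, and Slc30a5 with the median of detected probes. With the percentile taken over all non-control probes the counts were 6 above and 0 below, beside 69.9% and 19.0% of all genes. They were 5 and 1 with the median of detected probes, beside 61.4% and 24.6%, and 5 and 0 with quantile normalization, beside 57.4% and 27.7%. The scaling over all probes moved the median gene by -0.17, 0.19, -0.20 and 0.18 on replicates 1 to 4, and the median of detected probes moved it by -0.11, 0.11, -0.10 and 0.10. Mt1 and Slc39a1 kept replicates 2 and 4 above replicates 1 and 3 under all 7 of these settings. For Slc39a1 all but the mean over probes follow the brighter probe alone. In that mean replicate 2 lay only 0.0012 above the gene's mean, and the dimmer probe did not have this pattern. Mtf1 kept replicate 4 lowest in the 6 settings where it could be given.

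Genes with the same pattern were sought among 7907 genes outside the zinc and copper lists, by the root mean square difference of the 4 deviations from the gene mean. Many genes lay near with only 4 arrays that resemble each other in pairs: 154 genes lay within 0.05 of Mt1, 72 of Mt2A and 3 of Mtf1. The closest to Mt1 were the proline synthesis gene Pycr1 (0.0057), the peroxidase gene Prdx2 (0.0080) and the cholesterol synthesis gene Dhcr7 (0.0095). Prdx2 read 2.28, 2.93, 2.25 and 3.04 on replicates 1 to 4. The closest to Mt2A were Eed, of the Polycomb repressive complex, the transcription factor gene Stat5b, and Ngrn. The SD of Mt2A over arrays was only 0.56 times the spot noise near its level, and its order changed with the scaling. Nearness to Mt2A therefore cannot tell a shared pattern from spot noise. The closest to Mtf1 were the myosin gene Myo19 (0.0274), the ubiquitin ligase gene Rnf111 (0.0446) and the dynein light chain gene Dynll2 (0.0488).

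Most genes of the same families gave signal, in counts and median SDs that include the members described above. Of the 10 SLC30 exporter genes, each with a named probe, 6 gave signal well above background on all arrays, 1 on some and 3 on none. Of the 14 SLC39 importer genes, 12 could be read through a named probe, and 11 of these gave signal on all arrays, with Slc39a12 on none. The share was 47.9% over all genes. The exporters detected on no array were Slc30a4, Slc30a2 and Slc30a10. The median SD was 0.254 over the 6 detected exporters and 0.309 over the 11 detected importers.

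The widest of these transporters was Slc39a8, the gene of ZIP8, an importer of zinc and manganese that is known in macrophages as a target of NF-kB. Its levels were -0.02, -1.71, 0.07 and -1.76 in the order of the replicates, a 3.56-fold range with an SD of 1.02, or 17.5 times the spot noise near its level. Replicates 1 and 3 were high, the opposite of Mt1, and stayed so under all alternative settings, with ranges from 2.74-fold to 3.65-fold. Slc30a9, which encodes the mitochondrial exporter ZnT9, followed the same direction at -3.40, -4.49, -3.48 and -4.54, a 2.20-fold range. Slc39a5, the gene of ZIP5, went the other way at -4.69, -3.13, -3.97 and -3.20, a 2.94-fold range, but its other probe was detected on no array. These 3 were the ones among the 17 detected transporters with a range over 2-fold, beside 13.6% of all genes. Which genes pass 2-fold depends on the setting: the lowest range was 1.70-fold for Slc30a9 and 1.999-fold for Slc39a5, and the highest was 2.25-fold for Slc39a2, 2.15-fold for Slc39a11, and 2.04-fold for both Slc30a3 and Slc39a3.

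The remaining transporters had ranges from 1.12-fold to 1.76-fold. Slc30a6, which encodes the ZnT6 partner of ZnT5, read -2.34, -1.81, -2.33 and -1.74, so replicates 2 and 4 were high. The plasma membrane importer gene Slc39a3, for ZIP3, also had replicates 2 and 4 high at -0.77, -0.17, -0.77 and -0.13. Slc39a7, whose product ZIP7 releases zinc from the endoplasmic reticulum, read -1.13, -0.86, -1.20 and -0.80, with replicates 2 and 4 high again. Slc39a6 encodes ZIP6 and read -1.20, -1.36, -1.25 and -1.33, close on all arrays. Replicates 2 and 4 both read above replicates 1 and 3 in 9 of the 17 transporters and below in 6, beside 47.2% and 34.5% of all genes. Where the percentile was taken over all non-control probes the counts were 14 and 2, beside 69.9% and 19.0% of all genes. Under every setting where the gene could be given they read above in Slc30a3, Slc30a6, Slc39a1, Slc39a2, Slc39a3, Slc39a4, Slc39a5 and Slc39a7, and below in Slc30a9 and Slc39a8.

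**Figure D5:**
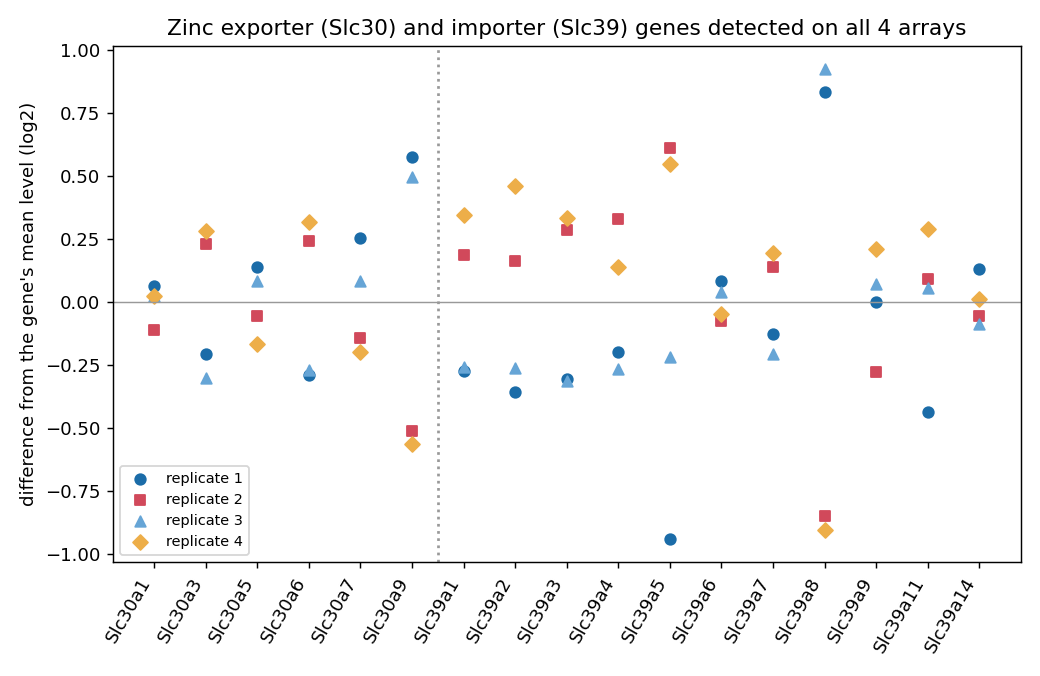
Difference of each array from the gene's own mean level (log2) for the 17 zinc transporter genes detected on all 4 arrays, exporters left of the dotted line and importers right of it; symbols are replicates. Slc39a8 and Slc30a9 have replicates 1 and 3 on top, Slc39a5 has replicates 2 and 4 on top, and Slc30a1, Slc39a6 and Slc39a14 stay close to 0.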

How the data were processed

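Messenger RNA of 4 exposed NR8383 cultures was hybridised to 1-colour Agilent rat arrays. The authors deposited scanner intensities. The submitters' processing notes name Agilent Feature Extraction, version 11.0.1.1. Background subtraction and spatial detrending of these intensities took place inside each array, per the file headers, which name build rn4 and record no step between arrays. Flags set by the software were used as deposited.

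Control spots and outlier spots (623 to 1016 per array) were left out, and repeated spots were averaged as log2 values. Of 45598 non-control probes, 34.2% were detected throughout, which is under 50%, so each array was scaled on the 75th percentile of those probes. A repeated probe was detected where over 50% of its spots were well above background. Genes were named by matching accessions without version to RefSeq (GRCr8): 21109 probes matched 1 symbol, 0 several and 24489 none. The brightest probe stood for a gene. Array coordinates were not used, since the builds differ; start windows are RefSeq's, on GRCr8.

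The text names all 10 members, any gene of the zinc and copper lists, and the 3 genes nearest in pattern to each detected metallothionein and to the detected member with the largest SD. Members and lists were chosen with earlier results of these data known, and the antioxidant and TATA motifs and the neighbouring spots were added later. The 4 arrays are 1 group, so no test between groups was run; single arrays far from the others were sought with Dixon's ratio. Alternatives were other scalings, quantile normalization, normexp (limma 3.58.1, offset 50, on median spot signals in place of the planned means), other detection rules, kept outliers, means over probes and leaving out each replicate. The averaging and scaling of levels were checked on simulated arrays, made from the levels of these data with known shifts and spot noise. Detection calls there were copied from the real arrays, so that run could not test detection. The planned comparison of protein sequences was not made. The number of arrays limits the precision. Python 3.11.15 and R 4.3.3 were used.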

Additional observations from a re-analysis of the deposited data

Results flagged for a closer look

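One probe of the 49 in the zinc and copper lists had a single array far from the others. A probe of Slc30a8, which encodes the zinc exporter of insulin granules, read -2.77 on replicate 3, where it was well above background, and between -8.17 and -7.88 on the other arrays. The gap was 0.947 of the whole range, above Dixon's critical value for 4 samples, which chance passes in about 1 of 20 groups. The other 3 arrays were not well above background, with software errors of 82.4% to 100.2% of the signal, so the ratio is taken against values at the floor and says nothing of the spread between cultures. None of the 24 neighbouring spots on replicate 3 reached 4 times its median on the other arrays (0 of 24), and the second probe of the gene was detected on no array.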

How the results depend on the processing

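The 7 members detected on all arrays remained 7 in number under the other settings, except for 6 with the mean over probes, and 7 without any 1 replicate. Over all genes the share was 42.8% with the mean over probes and between 47.9% and 49.1% otherwise. The median SD over detected members of 0.137 was 0.241 with the percentile taken over all non-control probes and 0.279 with quantile normalization, where all genes had 0.353 and 0.250. It lay between 0.117 and 0.162 when 1 replicate was left out. The count of members with a range over 2-fold, 1, was 0 with the mean over probes, with the median of detected probes, with quantile normalization and with normexp. Over all genes the shares in these settings were 11.9%, 13%, 13.3% and 9.41%, beside 13.6% in the main setting. The count of members ran from 0 to 1 when 1 replicate was left out, beside 11.2% to 11.9% of all genes. With the percentile over all probes it was 1 as well, beside 18.5% of all genes, but the gene was Mt1 and not Mtf1. With the mean over probes Mtf1 left the count because its dimmer probe was not detected on 2 arrays. The median of detected probes moved every gene by -0.11 on replicate 1 and 0.10 on replicate 4. These are the highest and lowest arrays of Mtf1, so its range narrowed. For quantile normalization the cause was not tested. Normexp adds an offset of 50 to the signals, where the brighter Mtf1 probe had processed intensities from 82.1 to 165.7. An added constant narrows a log2 range, and how much of the change it makes up was not tested. The metal response core was found in 8 windows, and in 6 with TGCACNC alone, beside 24.2% and 12.2% of all windows. The SDs of single members moved by over 1.5 times in 5 of 7 genes with the percentile over all probes and in 2 of 7 each with the median, quantile normalization and normexp. The mean levels of 4 of 7 moved with normexp, to -3.97 for Mt2A, -3.64 for Mtf1, -3.86 for Slc30a5 and -4.02 for Slc39a14. These levels include its offset of 50. That of Slc39a1 was -1.32 with the mean over probes. Without replicate 4, which also changes the scaling, the levels of Slc30a1, Slc30a5 and Slc39a14 moved to -1.12, -4.50 and -4.67. Signal over background limits Mt2A, Slc30a5, Slc39a14 and Mtf1. The probe that stands for each had 1 spot per array and software errors between 10.9% and 18.6%. The dimmer probe of Mtf1 had errors between 15.9% and 34.3%. No paired analysis was possible because the 4 arrays form 1 group.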

Other observations

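Copper handling genes, which share metallothionein as a metal store, were also read. A named probe was there for 11, of which 8 were detected on all arrays, 1 on some and 2 on none, beside 47.9% on all and 40.4% on none over all genes. The copper importer gene Slc31a1 was detected on no array, whereas Slc31a2, of the same family, was detected on all, at 1.56, 1.59, 1.60 and 1.64 on replicates 1 to 4, a 1.06-fold range that was the narrowest of the copper list. Atp7a, the copper pump of the secretory pathway, had 2 probes that ran together. They read -0.42, -1.40, -0.31 and -1.44, and -0.70, -1.76, -0.53 and -1.71, so replicates 1 and 3 were high on both, with ranges of 2.20-fold and 2.35-fold. Its copper donor gene Atox1 went the other way, at 0.63, 1.16, 0.64 and 1.30. Both directions held under all alternative settings. The related pump gene Atp7b was detected on no array.

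Other routes of zinc were also read. Mcoln1, the lysosomal channel that can release zinc, read -1.25, -0.87, -1.29 and -0.59. Trpm7, a channel of the plasma membrane that passes zinc, read 1.39, 1.93, 1.58 and 1.93, with replicates 2 and 4 high. Its second probe went the other way, at -3.65, -8.13, -5.35 and -7.63, and was well above background on replicates 1 and 3 only. Tmem163 was detected on no array.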
